A study of Mus musculus with 2 samples.

Results

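The NK lectin-like receptors are C-type lectin proteins of the killer cell lectin-like receptor (Klr) family, and 9 of their genes, Klrk1, Klrd1, Klrc1, Klrc3, Klrb1c, Klre1, Klrg1, Klra7 and Klra8, were followed in activated and naive CD8+ T cells. Every probe set whose platform annotation names 1 of these genes was taken, which gave 12 of the 45037 probe sets and 9 of the 19324 genes that the annotation names. Of the 12, 10 named a single gene, 1 was shared by Klrc3 and Klrc2, and 1 was shared by Klrb1b and Klrb1c. Klrb1c therefore had no probe set of its own.

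Gene expression was measured on 2 whole-genome mouse arrays. The first was hybridised with RNA of proliferating CD8+ T cells 72 h after activation and the second with RNA of naive CD8+ T cells, both from pmel-1 mice. In pmel-1 mice a transgenic T cell receptor directs the CD8+ T cells to a protein of pigment cells, so that most of these cells share 1 specificity. No source used here gives the stimulus, or the age and sex of the mice. Each RNA was a pool of 4 independent experiments on 1 array, which left both groups without replicates. Values and ratios below therefore carry no error and no test, and having only 2 arrays limits their precision.

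Receptors of this family were first known from natural killer (NK) cells, where activating and inhibitory members are weighed against each other by the cell. CD8+ T cells acquire a subset of them, mainly after antigen contact or as memory cells, and there the receptors tune the response of the T cell receptor. Most inhibitory members carry a tyrosine motif that recruits phosphatases such as the product of Ptpn6, whereas activating members have short tails and depend on adaptors such as the products of Hcst (DAP10) and Tyrobp (DAP12).

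The median deposited intensity was 52.3 for activated cells and 56.2 for naive cells, and 57.3% of probe sets lay under 100 on both. No ratio was formed, and no call made, where both values lay under 100. A probe set was called higher or lower when the intensities of the groups were more than 100 apart and their ratio, formed after lifting any value under 100 to 100, reached 1.4. If only 1 group lay under 100, the true fold could be larger and is given as a bound. The CD8 T cell markers were abundant on both arrays, for example Cd8a at 4860.0 in activated cells and 6020.4 in naive cells, and Cd3e at 2724 in activated cells and 3035 in naive cells. The value of Cd8a is that of its brightest probe set, and the log2 ratios of its 5 measured probe sets spanned -1.39 to -0.31. By the brightest probe set of each, 0 of the 6 CD8 T cell markers were called higher and 2 lower. These were Cd8b1 at 3554 in activated cells and 7725 in naive cells (2.17-fold lower) and Lat at 2214 in activated cells and 4081 in naive cells (1.84-fold lower). In pooled RNA, fewer cells that express a gene and less RNA of it per cell cannot be told apart.

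Of the 10 probe sets that name a single listed receptor, 7 reached 100 on at least 1 array, and among these 2 were higher and 4 lower in activated cells. Over all 19250 probe sets measured in this way, 21.9% were called higher and 19.3% lower. Counted by gene with the brightest probe set, 1 of 6 measured receptors, Klrk1, was higher in activated cells and 4, Klrd1, Klre1, Klra7 and Klra8, were lower, against 23.7% and 20.6% of 9842 measured genes. Klrc1 was called by only 1 of its probe sets. Klrc3 and Klrg1 lay under 100 on both arrays. Klra7 and Klra8 reached 100 only on the naive array, so a call for either of them could only be lower.

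**Figure D1:**
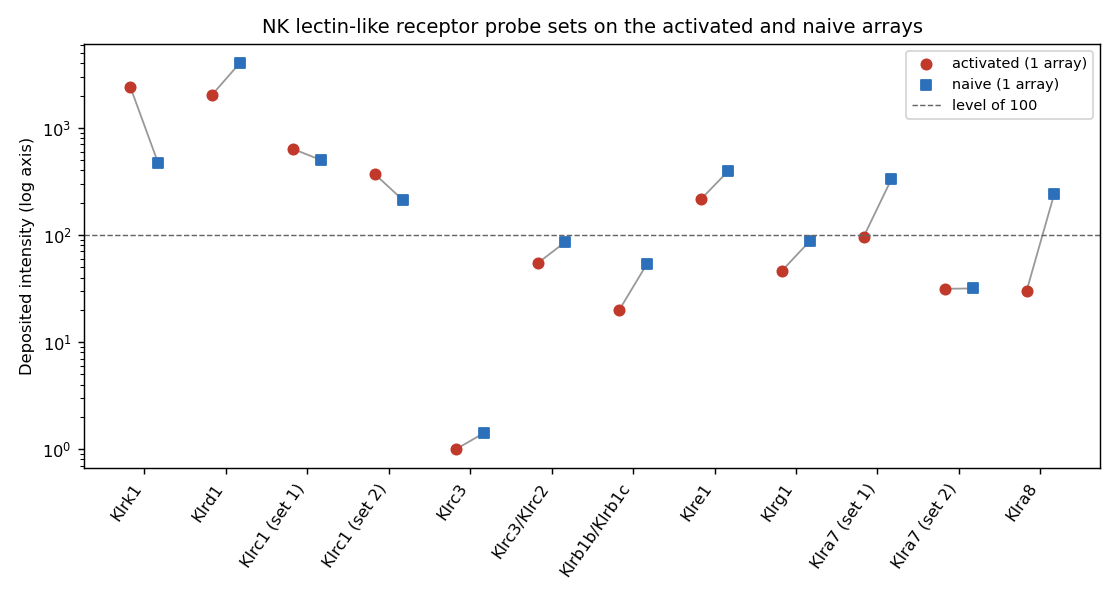
Deposited intensity (log axis) of the 12 probe sets that name a listed receptor, with the activated array at the left and the naive array at the right of each pair; each point is 1 array without replicates, and the dashed line marks the level of 100. Klrk1 stood at 2397 in activated and 469 in naive cells, Klrd1 at 2027 in activated and 4015 in naive cells, and both Klra7 (set 1) and Klra8 lay below the line on the activated array only.

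Klrk1 encodes NKG2D, an activating receptor that binds stress-induced relatives of class I molecules and acts as a co-stimulator on CD8+ T cells. Its only probe set, 1450495_a_at, was at 2397 in activated cells and at 469 in naive cells, a 5.11-fold higher level (log2 ratio of 2.35). The ratio was beyond the 90th percentile of all measured genes, which was 1.12 on the log2 scale. By the array's naming, this probe set may match several transcripts of the gene, so the long and short forms of NKG2D cannot be told apart.

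The promoter of Klrk1 is shown because Klrk1 was the only listed receptor called higher by its brightest probe set. The sequence is RefSeq's, assembly GRCm38.p6, chr6:129623815-129624114 on the minus strand, from 250 bases before to 50 bases after the start of the gene, and promoter sequences of this kind were matched for 7 of the 9 receptors. Capitals mark matches on either strand to 4 motifs that were searched, namely AP-1 (TGANTCA), T-box (TCACACC), RUNX (TGTGGTT) and the cyclic AMP response element (TGACGTCA).
Klrk1: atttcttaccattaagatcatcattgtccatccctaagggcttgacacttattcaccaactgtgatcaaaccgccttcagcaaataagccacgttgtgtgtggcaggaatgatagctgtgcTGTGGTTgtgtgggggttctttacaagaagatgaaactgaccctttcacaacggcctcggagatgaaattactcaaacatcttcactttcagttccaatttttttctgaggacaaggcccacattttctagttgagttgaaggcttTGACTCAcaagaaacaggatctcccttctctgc
It holds 1 AP-1 match, starting 18 bases into the transcribed part, and 1 RUNX match upstream. Among 32851 promoter windows of the same length, 7.8% held the AP-1 letters, 5.3% the RUNX letters, 4.0% the T-box letters and 1.8% the response element. A match is only a match of letters and does not show that a factor binds.

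Klrd1 encodes CD94, the common partner that pairs with NKG2 chains on the cell surface. Its only probe set, 1460245_at, was at 2027 in activated cells and at 4015 in naive cells, a 1.98-fold lower level (log2 ratio of -0.99). Klrd1 was far above 100 on both arrays. The difference was just under 2-fold, and Klrd1 was no longer called once the fold minimum was set to 2.

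Klrc1 encodes NKG2A, the inhibitory chain that pairs with CD94 and recognises the class I relative Qa-1. It was represented by 2 probe sets. The brighter, 1425005_at, was at 633 in activated cells and 501 in naive cells (1.26-fold, log2 ratio of 0.34) and was not called. The other, 1426182_a_at, was at 370.1 in activated cells and 213 in naive cells (1.74-fold higher, log2 ratio of 0.80) and was called. Both probe sets had the higher value in activated cells, and across all genes the standard deviation of log2 ratios between probe sets of 1 gene was 0.39. The ratios of Klrc1 and of its partner Klrd1 thus had opposite signs.

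Klrc3 encodes NKG2E, another chain that pairs with CD94. Its own probe set, 1421794_at, was at 1, the lowest deposited value, in activated cells and at 1.41 in naive cells. The probe set that it shares with Klrc2, which encodes the activating chain NKG2C, was at 54.5 in activated cells and 86.1 in naive cells. The probe set of Klrc2 alone was at 7.82 in activated cells and 13.6 in naive cells. All of these values lay under 100, so no ratio was formed for either gene.

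The promoters of the 3 neighbouring Klrc genes are given for comparison, because Klrc1 reached 100 on both arrays and the others did not, and because Klrc3 and Klrc2 share a probe set. They are from RefSeq, assembly GRCm38.p6, all on the minus strand, at chr6:129678924-129679223 for Klrc1, chr6:129643239-129643538 for Klrc3 and chr6:129660507-129660806 for Klrc2, with the same motifs in capitals.
Klrc1: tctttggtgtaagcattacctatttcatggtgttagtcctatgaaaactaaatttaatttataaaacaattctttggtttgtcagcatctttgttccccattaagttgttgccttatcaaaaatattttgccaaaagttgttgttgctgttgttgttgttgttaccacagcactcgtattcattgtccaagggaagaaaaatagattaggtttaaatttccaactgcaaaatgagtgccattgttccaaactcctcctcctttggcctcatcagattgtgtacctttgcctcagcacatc
Klrc3: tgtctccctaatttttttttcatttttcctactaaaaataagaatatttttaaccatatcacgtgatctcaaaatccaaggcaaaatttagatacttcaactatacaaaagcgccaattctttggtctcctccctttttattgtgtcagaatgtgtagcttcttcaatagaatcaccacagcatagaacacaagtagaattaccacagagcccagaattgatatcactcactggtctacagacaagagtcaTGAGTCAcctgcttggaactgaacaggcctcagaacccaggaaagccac
Klrc2: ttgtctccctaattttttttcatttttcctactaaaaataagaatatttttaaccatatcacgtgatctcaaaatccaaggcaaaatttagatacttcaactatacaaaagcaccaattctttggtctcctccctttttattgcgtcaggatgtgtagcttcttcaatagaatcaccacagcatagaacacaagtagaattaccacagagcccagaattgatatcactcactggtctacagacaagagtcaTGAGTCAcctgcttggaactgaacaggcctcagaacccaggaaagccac
In a global alignment, the windows of Klrc3 and Klrc2 were identical at 296 of 300 bases (98.7%), and each held 1 AP-1 match. Klrc2 had 2 start sites, and the window with the higher identity is shown. The Klrc1 window held no match to the 4 motifs.

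Klre1 encodes an NK receptor chain that in mice pairs with the products of Klri1 and Klri2. Its single probe set, 1458642_at, was at 214 in activated cells and at 397 in naive cells, a 1.85-fold lower level (log2 ratio of -0.89). The call was lost when a difference above 200 was required, and it was also lost with a fold minimum of 2. Klri1 and Klri2 had no probe set of their own symbol and were not analysed here.

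Klrb1c encodes NK1.1, the activating receptor used to define NK cells in some mouse strains. Its only probe set, shared with the inhibitory family member Klrb1b, was at 19.9 in activated cells and at 53.6 in naive cells, both under 100. The 5 probe sets of Klrb1b alone also lay under 100 on both arrays. Klrg1, an inhibitory receptor for cadherins that marks terminally differentiated effector cells, was at 46.5 in activated cells and 87.8 in naive cells by its single probe set, 1420788_at. No ratio was formed for these receptors, since all their values lay under the level used for comparison.

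The Klra genes encode the Ly49 receptors, which bind class I molecules in mice and are so alike in sequence that array probes often match several of them. Klra7 encodes Ly49G, an inhibitory receptor. Its probe set 1426171_x_at was at 96.1 in activated cells and at 331 in naive cells (at least 3.31-fold lower, log2 ratio of -1.73 or below), while its other probe set, 1451664_x_at, was at 31.4 in activated cells and 31.6 in naive cells. The call for Klra7 therefore rested on 1 of 2 probe sets. Klra8 encodes Ly49H, an activating receptor that recognises a protein of mouse cytomegalovirus and signals through the product of Tyrobp. Its probe set, 1425417_x_at, was at 29.9 in activated cells and at 242 in naive cells (at least 2.42-fold lower, log2 ratio of -1.28 or below). All 3 probe sets of Klra7 and Klra8 carry the suffix by which the array's naming marks probes that also match other sequences, so which Ly49 gene gave the signal is uncertain.

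The promoters of Klra7 and Klra8 are shown because both receptors had the same direction and are close relatives. They are from RefSeq, assembly GRCm38.p6, on the minus strand, at chr6:130233273-130233572 for Klra7, the later-listed of its 2 start sites, and at chr6:130129849-130130148 for Klra8.
Klra7: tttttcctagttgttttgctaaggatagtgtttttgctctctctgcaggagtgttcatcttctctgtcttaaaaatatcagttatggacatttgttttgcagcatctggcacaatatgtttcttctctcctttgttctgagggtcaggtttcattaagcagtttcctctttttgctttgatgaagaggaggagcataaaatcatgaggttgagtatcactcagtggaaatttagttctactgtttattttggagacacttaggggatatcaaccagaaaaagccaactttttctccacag
Klra8: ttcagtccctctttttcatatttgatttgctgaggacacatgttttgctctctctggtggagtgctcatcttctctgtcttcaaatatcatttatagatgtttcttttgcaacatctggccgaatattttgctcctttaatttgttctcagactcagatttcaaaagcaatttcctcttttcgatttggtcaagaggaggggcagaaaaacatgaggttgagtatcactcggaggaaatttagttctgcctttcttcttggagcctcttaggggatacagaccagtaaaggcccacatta
These windows were identical at 231 of 300 bases (77.0%) in a global alignment, against 55.7% for the windows of Klrc1 and Klre1, which belong to different branches of the family. Klra8 and Klre1 also had 2 start sites each. Every pair of start sites was aligned and the highest identity kept, and the Klra7 and Klra8 windows shown are the pair that gave it. Neither of the windows shown holds a match to the 4 motifs. The comparison is of promoters, and the sequences of the probes were not used here.

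**Figure D2:**
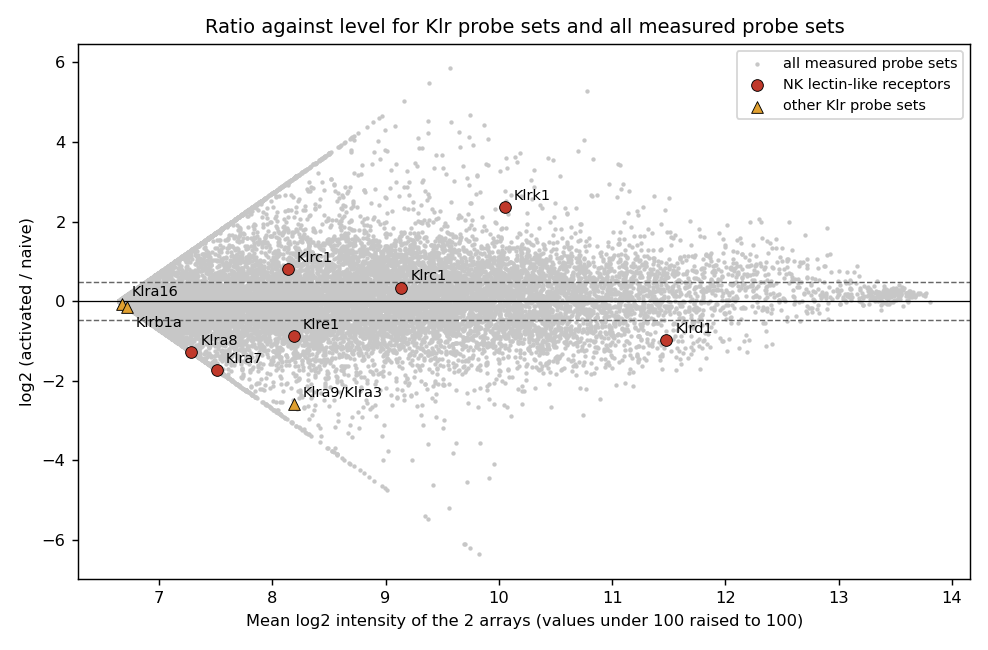
Log2 ratio of activated over naive cells against mean log2 intensity for all 19250 measured probe sets (grey), with the listed receptors (red circles) and other Klr probe sets (yellow triangles) named; dashed lines mark a ratio of 1.4, and the grey edges that meet at the left are probe sets with 1 value raised to 100. Klrk1 lies high at 2.35 and Klrd1 at -0.99 among the brighter probe sets, while Klra7 and Klra8 lie on the lower edge, where the ratio is a bound.

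Outside the 9 listed receptors, 18 further probe sets named Klr genes, and 15 of them lay under 100 on both arrays. The 3 others were higher in no case and lower by the size rule in 1, where 21.9% of all measured probe sets were higher and 19.3% lower. That probe set, 1425436_x_at, is shared by Klra9 and Klra3, which encode the Ly49 receptors I and C, and was at 119.6 in activated cells and 713 in naive cells (5.97-fold lower, log2 ratio of -2.58). The promoters of Klra9 and Klra3 were identical at 90.3% of bases, and here too the signal cannot be given to 1 gene. Klra16 was at 11.1 in activated cells and 104.5 in naive cells, and Klrb1a at 24.2 in activated cells and 110.5 in naive cells, neither past the size rule. Both reached 100 only on the naive array and could not have been called higher. Among the Klr genes under 100 on both arrays, Klra5 was at 20.8 in activated cells and 93.2 in naive cells, and Klra17 at 81.4 in activated cells and 93.0 in naive cells.

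Counting deposited values without the size rule, 25 of the 30 Klr probe sets had a lower value in activated cells, 4 a higher value and 1 the same value, where 51.6% of all probe sets had a lower value. The 4 with a higher value were those of Klrk1, Klrg2 (55.9 in activated cells and 17.7 in naive cells) and both of Klrc1. All 11 probe sets that name a Klra gene had the lower value in activated cells, although 7 of them lay under 100 on both arrays. Most of these values are near background and several probe sets match more than 1 gene, so the counts describe the 2 arrays and are not independent of each other.

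All 9 listed receptor genes lie on chromosome 6, by the RefSeq table of assembly GRCm38.p6, most of them within the NK gene complex. Klre1, Klrd1, Klrk1, Klrc3, Klrc2 and Klrc1 follow each other in that order among the Klr genes. Immediate neighbours did not always share a direction. Klre1 and Klrd1 had log2 ratios of -0.89 and -0.99, whereas Klrk1, the next gene, had 2.35.

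**Figure D3:**
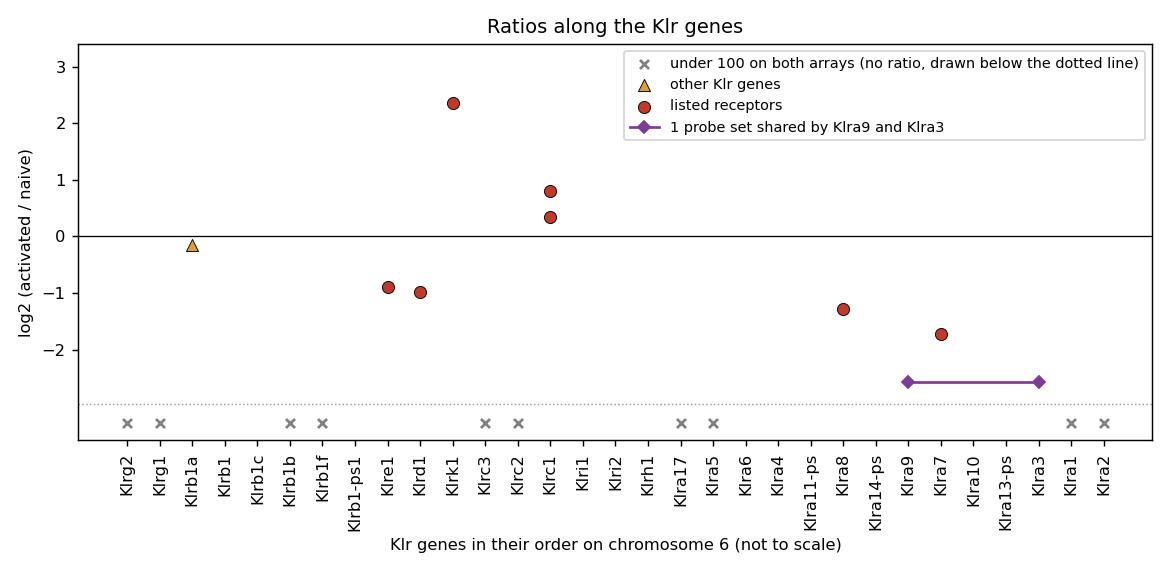
Log2 ratio of activated over naive cells for each measured probe set of the Klr genes, placed by gene order on chromosome 6 and not to scale; crosses below the dotted line are genes under 100 on both arrays, and genes without a mark had no probe set of their own. Klre1 (-0.89) and Klrd1 (-0.99) stand beside Klrk1 (2.35), and the probe set shared by Klra9 and Klra3 has the lowest ratio (-2.58).

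Hcst, the adaptor gene of NKG2D, was lower in activated cells, in the opposite direction to Klrk1. Its product, DAP10, couples the receptor to phosphoinositide 3-kinase, and Hcst was at 191 in activated cells and at 2301 in naive cells, 12.1-fold lower (log2 ratio of -3.59). Tyrobp, whose product DAP12 serves Ly49H and the short form of NKG2D, was at 6.88 in activated cells and 260 in naive cells (at least 2.60-fold lower). Fcer1g, the Fc receptor gamma chain used by NK1.1, was at 31.7 in activated cells and 152 in naive cells (at least 1.52-fold lower). Each of these 3 adaptors had 1 probe set. Tyrobp and Fcer1g reached 100 only on the naive array, so they could only be called lower, and both are also on the list of NK cell markers given below.

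Of the 16 measured genes in the list of adaptors and signalling proteins, 1 was higher and 9 were lower, with a median log2 ratio of -0.61, against 23.7% higher, 20.6% lower and a median of 0.01 over all measured genes. The higher gene was Sh2d1a, the adaptor SAP of the SLAM receptors, at 1899 in activated cells and 936 in naive cells (2.03-fold higher). Besides Hcst and Tyrobp, the lowest log2 ratios were those of Plcg1, phospholipase C gamma, at 521 in activated cells and 1395 in naive cells (2.68-fold lower), and Pik3r1, a regulatory subunit of phosphoinositide 3-kinase, at 423 in activated cells and 965 in naive cells (2.28-fold lower). Ptpn6, the phosphatase SHP-1 recruited by inhibitory receptors, was at 1701 in activated cells and 1604 in naive cells and was not called, nor was Plcg2 at 142 in activated cells and 138.5 in naive cells. The lipid phosphatase gene Inpp5d, which also acts downstream of inhibitory receptors, was at 702 in activated cells and 1523 in naive cells (2.17-fold lower). With a fold minimum of 2, 5 genes of the list were lower in place of 9.

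**Figure D4:**
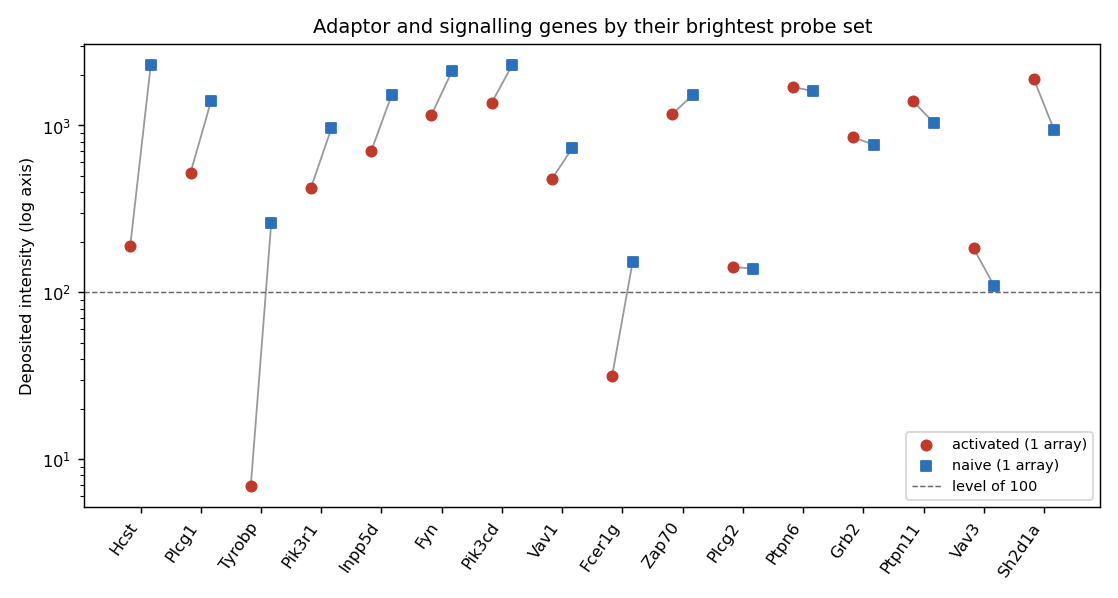
Deposited intensity (log axis) of the 16 measured adaptor and signalling genes, with the activated array at the left and the naive array at the right of each pair, 1 array each, ordered by their log2 ratio. Hcst, at 191 in activated and 2301 in naive cells, has the lowest ratio, and Sh2d1a, at 1899 in activated and 936 in naive cells, the highest.

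Of 15 listed ligand genes of the receptors, 4 were measured by a probe set of their own, and 0 of these were called higher or lower. Over all measured genes, 23.7% were called higher and 20.6% lower, so 0 calls among 4 genes says little. The class I genes H2-D1 and H2-K1, whose products are bound by Ly49 receptors, were at 7562 in activated and 7753 in naive cells and at 8079 in activated and 8449 in naive cells. Over their measured probe sets, log2 ratios spanned -1.66 to 0.07 for H2-D1 and -1.11 to -0.07 for H2-K1. The cadherin genes Cdh1 and Cdh4, for the Klrg1 ligands E- and R-cadherin, were at 8.53 in activated and 131 in naive cells and at 188 in activated and 220.3 in naive cells. Cdh1 reached 100 only on the naive array, so its ratio is a bound, and it was called lower with a floor of 50. H2-T23, which encodes the NKG2A ligand Qa-1, was represented only by 2 probe sets shared with the pseudogene H2-T-ps, and these disagreed. One was at 4240 in activated cells and 6244 in naive cells (log2 ratio of -0.56), and the other at 567 in activated cells and 202 in naive cells (log2 ratio of 1.49). The NKG2D ligand genes Ulbp1 and H60c lay under 100 on both arrays, as did a probe set shared by Raet1e and Raet1d.

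Other lectins of the NK gene complex were lower for 2 of 5 measured genes and higher for 0, where 20.6% of all measured genes were lower and 23.7% higher. Clec2d, a ligand of the inhibitory receptor encoded by Klrb1b, was at 879 in activated cells and 2363 in naive cells (2.69-fold lower). Clec2i was at 235 in activated cells and 815 in naive cells (3.47-fold lower), and its second measured probe set gave a log2 ratio of -1.19. Cd69, an activation marker encoded in the same complex, was at 860.1 in activated cells and 1050 in naive cells and was not called. Clec2h, at 94.2 in activated and 102.5 in naive cells, and Clec2e, at 121 in activated and 104 in naive cells, were not called. The list median was -0.29.

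Among 10 measured receptors of other protein families found on NK cells and CD8+ T cells, 2 were called higher and 2 were called lower, close to the shares of 23.7% and 20.6% over all measured genes. Their median log2 ratio was -0.01. Lag3, an inhibitory receptor for class II molecules, was at 784 in activated cells and 19.6 in naive cells (at least 7.84-fold higher), and Slamf6 was at 1822 in activated cells and 1288 in naive cells (1.42-fold higher), although the log2 ratios of its 3 probe sets spanned -0.10 to 0.68. Cd96, a receptor for nectin-like proteins, was at 487 in activated cells and 2031 in naive cells (4.17-fold lower), and Cd226, which binds related ligands, at 147 in activated cells and 257 in naive cells (1.75-fold lower). Ceacam1 (101 in activated and 70.6 in naive cells) and Lair1 (74.0 in activated and 103 in naive cells) were not called, and their ratios are bounds, since 1 value of each was raised to 100. Quantile and loess scaling each gave 1 higher gene in place of 2, without Slamf6, and 3 lower in place of 2.

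Transcription factors and cytokine receptors that act in NK cells and effector T cells differed in both directions, with 4 of 15 measured genes higher and 5 lower (26.7% and 33.3%, against 23.7% and 20.6% of all measured genes) and a median log2 ratio of 0.06. Tbx21, encoding T-bet, was at 764 in activated cells and 333 in naive cells (2.30-fold higher), whereas the related factor Eomes was at 215 in activated cells and 725 in naive cells (3.37-fold lower). Il12rb2, a chain of the interleukin-12 receptor, was at 389 in activated cells and 17.1 in naive cells (at least 3.89-fold higher). Nfil3, a factor needed for NK cell development, was at 296 in activated cells and 21.0 in naive cells (at least 2.96-fold higher). Bcl11b, which holds T cells to their lineage and restrains NK receptor genes, was at 952 in activated cells and 3389 in naive cells (3.56-fold lower), and its 4 probe sets spanned -1.91 to -1.83 on the log2 scale. Runx3 (1076 in activated and 1095 in naive cells) and Il15ra (167 in activated and 161 in naive cells) were not called.

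Genes typical of memory-phenotype CD8+ T cells, which carry several of the receptors at rest, gave 7 lower and 3 higher genes among 12 measured, where 20.6% of all measured genes were lower and 23.7% higher. Their median log2 ratio was -0.85, against 0.01 over all measured genes. Ccl5, a chemokine stored by memory cells, was at 638 in activated cells and 4619 in naive cells (7.24-fold lower), and the granzyme gene Gzmm was at 48.6 in activated cells and 473 in naive cells (at least 4.73-fold lower). Gzma was at 232 in activated cells and 989 in naive cells (4.27-fold lower). Fasl, the death ligand gene, was at 710.0 in activated cells and 100.5 in naive cells (7.06-fold higher). Il2rb, the interleukin-2 and interleukin-15 receptor chain that marks memory-phenotype cells, was higher in activated cells at 1354, against 826 in naive cells. Nkg7 (4060 in activated and 3952 in naive cells) and Xcl1 (982 in activated and 825 in naive cells) were not called. Cd44, which also marks such cells, was higher in activated cells at 2036, against 1108 in naive cells (1.84-fold higher). The part of memory-phenotype cells in the receptor values was not tested.

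**Figure D5:**
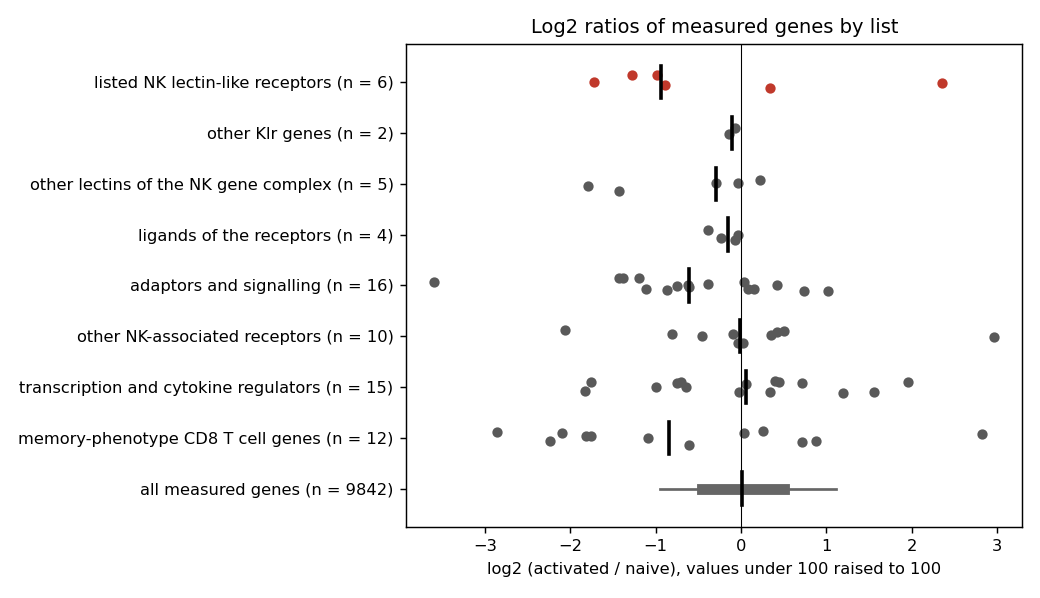
Log2 ratio of activated over naive cells for the measured genes of each list, 1 point per gene by its brightest probe set, with the list median as a black bar; for all 9842 measured genes the thick line spans the middle 50% and the thin line the 10th to 90th percentiles. The listed receptors spread from -1.73 to 2.35 with a median of -0.94, and the medians of the signalling and memory-phenotype lists are -0.61 and -0.85.

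Some markers of other cells were also called lower in activated cells, although many markers lay under 100 on both arrays. Over all measured genes, 20.6% were called lower and 23.7% higher, and each marker list below held few measured genes. Of 9 NK cell markers 7 had a probe set of their own, with a summed intensity of 158 in activated cells and 688 in naive cells, and 5 of the 7 lay under 100 on both arrays. Sums here and below add probe sets whose levels are not comparable, and include values under 100. Tyrobp and Fcer1g were measured and lower, as given above, whereas the defining NK receptor gene Ncr1 was at 27.8 in activated cells and 54.7 in naive cells, Itga2 at 24.7 in activated and 6.3 in naive cells, and Fcgr3 at 40.1 in activated and 75.4 in naive cells, all under 100. Klrb1f, a Klr gene on the same marker list, was at 20.8 in activated and 85.1 in naive cells. Among 5 innate-like T cell markers with a probe set, 3 were measured and 2 of these were lower. Cd163l1, a scavenger receptor gene of gamma delta T cells, was at 55.1 in activated cells and 1672 in naive cells (at least 16.7-fold lower). Maf was at 13.4 in activated cells and 233 in naive cells, but the log2 ratios of its 2 measured probe sets were -1.22 and -0.02. Sox13, at 104.6 in activated and 141.8 in naive cells, was not called, and Zbtb16 lay under 100 on both arrays. The B cell markers were lower for 3 of 5 measured genes, with sums of 3435 in activated and 6044 in naive cells. Most of both sums came from Ighm, at 2968 in activated and 4990 in naive cells by its brightest probe set. The log2 ratios of the 7 measured probe sets of Ighm spanned -4.71 to -0.75. Of 8 myeloid markers 6 lay under 100 on both arrays, among them Cd14 at 48.8 in activated and 48.3 in naive cells and S100a9 at 1 in activated and 19.6 in naive cells. The 2 measured, Csf1r and Lyz2, were lower, and the list summed to 644 in activated and 1125 in naive cells. The dendritic cell markers were lower for 1 of 2 measured genes, with sums of 242 in activated and 2271 in naive cells. Most of the naive sum came from H2-Aa, and the log2 ratios of its 4 measured probe sets spanned -4.33 to -0.03. The erythroid markers were lower for 1 of 2 measured genes, with sums of 47.9 in activated and 7030 in naive cells, and the main gene, Hbb-b2, was at 1 in activated cells and 6852 in naive cells. Its other measured probe set had a log2 ratio of -0.18. The probe sets shared between globin genes, left out of this list, were all called lower, at 4242 to 8254 in naive cells and at most 25.4 in activated cells. In these 4 lists and the NK and innate-like lists, 0 measured genes were called higher, against 23.7% of all measured genes, but several of them, such as Tyrobp, Fcer1g, Lyz2, Cd79b, Maf and Hbb-b2, reached 100 only on the naive array and could not have been called higher. Of the 4 CD4 T cell markers 0 were called, and Cd4 lay under 100 on both arrays at 50.5 in activated and 45.1 in naive cells. The part of such cells in the lower values of Klrd1, Klre1, Klra7 and Klra8 was not tested.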

How the data were processed

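RNA pools of activated and naive CD8+ T cells, each from 4 independent experiments, were hybridised to 1 array per group. Per the design text, the authors obtained the deposited intensity of each probe set from dChip, using its model of perfect-match minus mismatch signal and its invariant set normalization. Present calls made with GCOS 1.3, per the design text, were not used here. Mismatch subtraction makes low values unreliable, so values under 100 were raised to 100 for ratios, and no ratio was formed where both lay under 100.

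The table held 45037 probe sets after 64 controls were left out. Platform annotation gave 1 symbol to 34945, several to 932 and none to 9160. For 34741 of the probe sets with 1 symbol, the Entrez identifier matched RefSeq GRCm38.p6, which changed 0 symbols. Genes most like a receptor in level are not named, because levels of different probe sets are not comparable. A gene was represented by its single-symbol probe set with the highest mean. With 1 array per group no test was possible, and differences were called by size. The size rule keeps the parts of the study's stated rule that intensities allow. Members and lists were chosen with earlier results of these data known. All receptors were named, with every measured Klr gene, and in each other list up to 4 genes past the rule and 2 near 0; further genes, such as Sh2d1a, Inpp5d, Fcer1g, Tbx21, Il2rb, Cd44, Cd69, Cdh1, Cdh4, H2-T23, Klra5, Klra17 and the markers Ncr1 and Itga2, were named after their values were seen. The rule was also run on simulated data, where changed genes lay well above 100, had folds of at least 2 and carried little noise. That run does not bear on weak genes or on smaller folds, such as those of Klrd1 and Klre1. Alternatives were other fold, difference and floor settings, 3 scalings and other choices of probe set. Python 3.11.15, numpy 2.4.6, statsmodels 0.14.6 and Biopython 1.88 were used.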

Additional observations from a re-analysis of the deposited data

How the results depend on the processing

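No paired analysis was possible because each group had 1 array. Klrk1 was called higher and Klrd1 had a negative ratio under every alternative run, with log2 ratios from 2.26 to 2.35 for Klrk1 and from -1.17 to -0.99 for Klrd1. Klre1 ranged from -0.93 to -0.84 and Klrc1 from 0.22 to 0.57. Of 192 recomputed values, 172 kept their value within the spread of probe sets or within 1.5 times the count, and 20 moved. The 172 include values that the setting could not have moved, so their number is no measure of stability. A reversal was defined only for the 42 recomputed log2 ratios, apart from those of Klrc1, which was not called. Among these ratios 0 reversed. The other values were counts, for which no reversal was defined. All 16 for the list of other Klr genes stayed at 0, but only 2 of its genes, Klra16 and Klrb1a, were measured. Both reached 100 only on the naive array, with values less than 100 apart, so these counts had little room to change. The probe set shared by Klra9 and Klra3, which was called lower, is not part of that list.

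With a fold minimum of 2, 2 receptor genes were lower (Klra7 and Klra8) in place of 4, 2 receptor probe sets were lower in place of 4 and 1 was higher in place of 2. That setting also left 5 lower adaptor and signalling genes, 1 higher memory-phenotype gene, 1 higher and 1 lower gene among the other NK-associated receptors, and 2 lower regulators. A difference minimum of 200 left 1 higher receptor probe set and 1 lower NK-associated receptor, and a minimum of 50 gave 2 higher adaptor genes. With a floor of 200, Klra7 was at -0.73 and Klra8 at -0.28, where Klra8 was no longer called, and 1 NK-associated receptor was lower. With a floor of 50, Klra8 was at -2.28 and 1 ligand gene was lower. Both shifts follow from the floor, which sets the bound. Averaging the probe sets of a gene gave 2 higher receptors, Klrc1 joining Klrk1, and brought Klra7 to -0.032, since its second probe set lay under 100. Klra7 was then no longer called, which left 3 lower receptor genes in place of 4. Quantile and loess scaling each left 1 higher NK-associated receptor. Over all probe sets, 53.3% of calls were higher as reported and 49.5% after quantile scaling. Low signal limits Klrc3, Klrb1c and Klrg1, for which no setting of 100 or above gave a ratio.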
